A study of Homo sapiens with 4 samples.

Results

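The ISG15 conjugation machinery was followed through 6 genes on human expression arrays: ISG15, the modifier itself, UBA7, UBE2L6, HERC5, HERC6 and USP18. They were taken by gene name from the array design, over all spots that are not controls, and made up 6 of the 27193 gene names, 7 of the 34127 probes and 16 of the 43118 spots on each array. All 6 passed the filter on dim probes and stood among the 22001 genes tested. The arrays compared MCF10A.B2 cells (control, n = 2) with MCF10A.B2 cells carrying a shRNA against PAK1 (PAK1 shRNA, n = 2), PAK1 being a kinase that acts below Rac and Cdc42. MCF10A is a non-tumorigenic human mammary epithelial line, and its B2 derivative carries a form of Her2 that a chemical crosslinker can activate. Both groups were grown in DMEM/F12 with horse serum, starved of serum for 3 h and given the crosslinker AP1510 for 15 min, so neither group shows cells without Her2 activation. The series text describes the shRNA as stably expressed and Tet inducible, while the sample labels call the other group control or Pak1 wild type. The study's methods describe that group as the line without the shRNA. No array of a non-targeting shRNA was analysed here, so the loss of PAK1 and the expression of a shRNA as such cannot be told apart. The series text speaks of cells from different tumors, whereas the sample labels name the cell line, and how the replicates were obtained is not settled, so the p-values measure only the spread between these arrays, which may be technical.

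ISG15 is a small protein built like a pair of ubiquitin units in tandem, and it is strongly induced by type I interferon. It is joined to lysines of other proteins by a cascade that mirrors ubiquitination: UBA7 is the E1 that activates it, UBE2L6 the E2 that carries it, HERC5 the main human E3 ligase that places it on newly made proteins, and USP18 the protease that takes it off again. HERC6 is the closest relative of HERC5 and the main ISG15 ligase of the mouse. All are known as interferon-stimulated genes, whose promoters often hold the interferon-stimulated response element (ISRE) bound by factors that include STAT2 and IRF9, and USP18 also binds the interferon receptor chain IFNAR2 and dampens its signalling.

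The values rest on 7 probes of 60 bases. Those of UBA7, UBE2L6, HERC5, HERC6 and USP18 are shown because each level of these genes below is the brightness of 1 of the sequences, with HERC6 being the sole gene measured by more than 1 of them. All letters are in lower case, since no base is singled out.
UBA7: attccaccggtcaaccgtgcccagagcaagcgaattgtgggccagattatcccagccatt
UBE2L6: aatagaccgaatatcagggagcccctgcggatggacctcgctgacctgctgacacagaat
HERC5: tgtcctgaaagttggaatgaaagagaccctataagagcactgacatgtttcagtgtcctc
HERC6, probe used: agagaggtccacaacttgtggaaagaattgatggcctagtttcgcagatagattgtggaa
HERC6, other probe: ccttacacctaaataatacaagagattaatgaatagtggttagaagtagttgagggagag
USP18: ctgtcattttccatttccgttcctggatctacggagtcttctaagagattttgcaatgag
In the hg19 coordinates of the array files the UBA7 probe lay at chr3:49845325-49845476 on the minus strand (a span longer than the probe) and the UBE2L6 probe at chr11:57319897-57319956 on the minus strand. The HERC5 probe lay at chr4:89426889-89426948, the HERC6 probes at chr4:89317234-89317293 and chr4:89363667-89363726, and the USP18 probe at chr22:18659618-18659677, all on the plus strand. No exon or UTR annotation of hg19 was used here, so these probes are placed by gene name and position only.

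RefSeq promoters of GRCh38.p14, from 250 bases before to 50 bases after the start of the gene, were at hand for ISG15, UBE2L6, HERC5 and HERC6. UBA7 and USP18 had no entry. The ISRE core GAAANNGAAA, searched on both strands, was found 2 times in the ISG15 promoter and 3 times in the HERC5 promoter, and it was not found in the HERC6 and UBE2L6 windows. Of all 34943 promoters of that length, 3.57% held it. The GAS element TTCNNNGAA, also searched on both strands, was found in none of the 4 promoters, against 7.66% of all promoters. The stretches with a match are shown because the genes with a match include both of the largest fold changes below, and capitals mark the bases covered by ISRE cores. Both are written on the plus strand, which is also the strand of the genes.
ISG15, chr1:1013344-1013439: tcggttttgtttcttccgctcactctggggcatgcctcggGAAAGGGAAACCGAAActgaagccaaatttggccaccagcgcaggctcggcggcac
HERC5, chr4:88456954-88457094: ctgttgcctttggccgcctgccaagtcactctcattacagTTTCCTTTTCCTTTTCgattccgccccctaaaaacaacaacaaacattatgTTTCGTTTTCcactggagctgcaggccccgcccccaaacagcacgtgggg
In ISG15 the pair of matches shared bases, and the first of them began at position -113, counted from the start. In HERC5 the matches lay on the minus strand, with a pair that shared bases from position -125 on and the other match nearer to the start. These matches are a description of letters and carry no measurement of binding.

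All 6 genes were higher in PAK1 shRNA cells at an adjusted p under 0.05 (limma, Benjamini-Hochberg over all genes tested). In the same direction 31% of all genes passed, so a call alone says little of the members, and the size of the change is the more telling value. Their median log2 fold change was 5.49, against 0.02 over all 22001 genes. All 6 were called with a rise of at least 2-fold, against 8.85% of all genes, and 5 of the 6, all but UBE2L6, with one of at least 16-fold, against 0.473%. Ranked by log2 fold change among all genes, the members stood between 20 and 140. In all 6 genes both PAK1 shRNA arrays lay above both control arrays, which held for 42.1% of all genes. All 16 spots were well above background on all 4 arrays, and none was saturated or flagged. The largest SD within a group was 0.18 on the log2 scale, small beside the smallest change of 3.72. The number of arrays, 2 a group, limits the precision, and an exact permutation test over them cannot go below p = 0.333. In RNA from whole cultures, more cells that express a gene and more RNA per cell cannot be told apart.

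**Figure D1:**
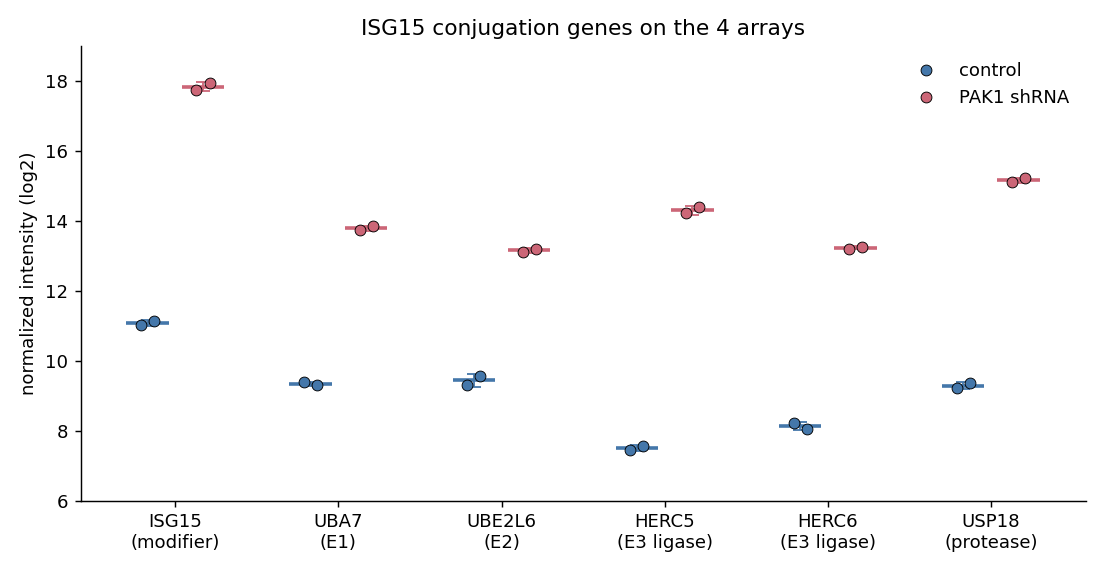
Normalized log2 intensity (y axis) of the 6 genes (x axis, with the role of each), with 1 point for each of the 2 control and 2 PAK1 shRNA arrays. In every gene the PAK1 shRNA points lie above the control points, from 3.72 higher in UBE2L6 to 6.80 higher in HERC5, and replicate points nearly coincide.

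ISG15, the modifier, had normalized log2 intensities of 11.01 and 11.14 on the control arrays and of 17.74 and 17.93 on the PAK1 shRNA arrays. The groups did not overlap, and both PAK1 shRNA arrays lay far above both controls. The log2 fold change was 6.76 (SE 0.10, 95% interval 6.53 to 6.99, adjusted p = 2.04e-07 from limma), or 108-fold. Before any normalization the spot had read 2805 and 2410 in control cells and 181312 and 205559 in PAK1 shRNA cells, so the change is already in the scanner values. ISG15 was measured by 1 spot per array, and its level in control cells was already well above background.

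UBA7, the E1 that forms the thioester with ISG15 and starts the cascade, had log2 intensities of 9.38 and 9.29 in control cells and of 13.74 and 13.84 in PAK1 shRNA cells. The arrays of each group lay close together and the groups were far apart. The log2 fold change of UBA7 was 4.45 (SE 0.08, 95% interval 4.26 to 4.64, adjusted p = 3.19e-07 from limma), or 21.9-fold. UBE2L6, the E2, had log2 intensities of 9.31 and 9.57 in control cells and of 13.11 and 13.21 in PAK1 shRNA cells. Its control arrays differed by more than those of the other members, and its change was still the smallest of the 6. The log2 fold change was 3.72 (SE 0.10, 95% interval 3.47 to 3.97, adjusted p = 1.00e-06 from limma), or 13.2-fold.

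HERC5, the E3 ligase, had log2 intensities of 7.45 and 7.56 in control cells and of 14.21 and 14.39 in PAK1 shRNA cells. This gave HERC5 a log2 fold change of 6.80 (SE 0.09, 95% interval 6.57 to 7.02, adjusted p = 2.04e-07 from limma), or 111-fold. HERC5 is the member for which the array carries repeats of the same probe, 10 spots spread over each array. Over these spots the log2 intensity ran from 7.32 to 7.58 with a median of 7.46 on control array 1 and from 7.29 to 7.71 with a median of 7.59 on control array 2. On PAK1 shRNA array 1 it ran from 13.95 to 14.42 with a median of 14.24, and on PAK1 shRNA array 2 from 14.15 to 14.61 with a median of 14.43. The lowest spot of the PAK1 shRNA arrays thus lay far above the highest spot of the controls, and the SD over the spots of an array was 0.09 to 0.18. These spots are repeats within an array and not replicates of the condition. HERC5 was the member whose size moved most with the processing. Its log2 fold change ran from 5.73 with normexp fitted on all spots to 7.10 with an offset of 16, and with the scanner's processed signal scaled to the 75th percentile, which changes signal and scaling together, it was 7.52.

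HERC6, the relative of HERC5, had log2 intensities of 8.22 and 8.06 in control cells and of 13.20 and 13.25 in PAK1 shRNA cells with the brighter of its probes. The log2 fold change was 5.09 (SE 0.09, 95% interval 4.88 to 5.29, adjusted p = 2.96e-07 from limma), or 34.0-fold, and with normexp fitted on all spots it was 4.30. The other HERC6 probe read 7.45 and 7.66 in control cells and 11.77 and 11.93 in PAK1 shRNA cells. Both probes showed a separation of the groups, and the second gave a smaller log2 fold change of 4.29 (SE 0.10). The probes carry different transcript accessions in the array design, and whether they read different transcripts was not tested.

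USP18, the protease that removes ISG15, had log2 intensities of 9.21 and 9.35 in control cells and of 15.11 and 15.21 in PAK1 shRNA cells. This gave USP18 a log2 fold change of 5.88 (SE 0.09, 95% interval 5.68 to 6.09, adjusted p = 2.04e-07 from limma), or 59.0-fold. The RNA of the enzyme that takes the modifier off thus rose together with that of the enzymes that put it on. The proteins and the conjugation of ISG15 were not measured on these arrays. USP41, a near copy of USP18 in the genome, had log2 intensities of 7.45 and 7.64 in control cells and of 12.03 and 12.17 in PAK1 shRNA cells, a log2 fold change of 4.55 (SE 0.10). The USP41 probe, at chr22:20723784-20723843 on the minus strand of hg19, was the following, shown to be set against the USP18 probe above.
USP41: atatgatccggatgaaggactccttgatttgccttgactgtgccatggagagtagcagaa
Laid over the USP18 probe without gaps, on either strand, it shared at best 22 of 52 overlapping bases. That best match was with the reverse complement of the USP41 probe, so the probes read different stretches. Whether the USP41 probe also binds USP18 RNA was not tested, and the USP41 value is uncertain for that reason.

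In the order of the log2 fold changes, HERC5 and ISG15 came first with overlapping 95% intervals, and neither can be placed before the other. ISG15 was above HERC5 when normexp was fitted on all spots (6.59 against 5.73) and without background correction (6.73 against 6.54). USP18, HERC6, UBA7 and UBE2L6 followed in that order with intervals that did not overlap. The place of HERC6 before UBA7 rested on the probe used, since the other HERC6 probe gave 4.29, beside 4.45 in UBA7. Of the pairs within the set, HERC5 changed by 1.71 more than HERC6, USP18 by 0.87 less than ISG15 and UBE2L6 by 0.73 less than UBA7 on the log2 scale. Each pair had an exact permutation p of 0.333 (two-sided), the smallest that 2 arrays against 2 allow. All 3 differences were larger than the largest SD within a group, 0.18.

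**Figure D2:**
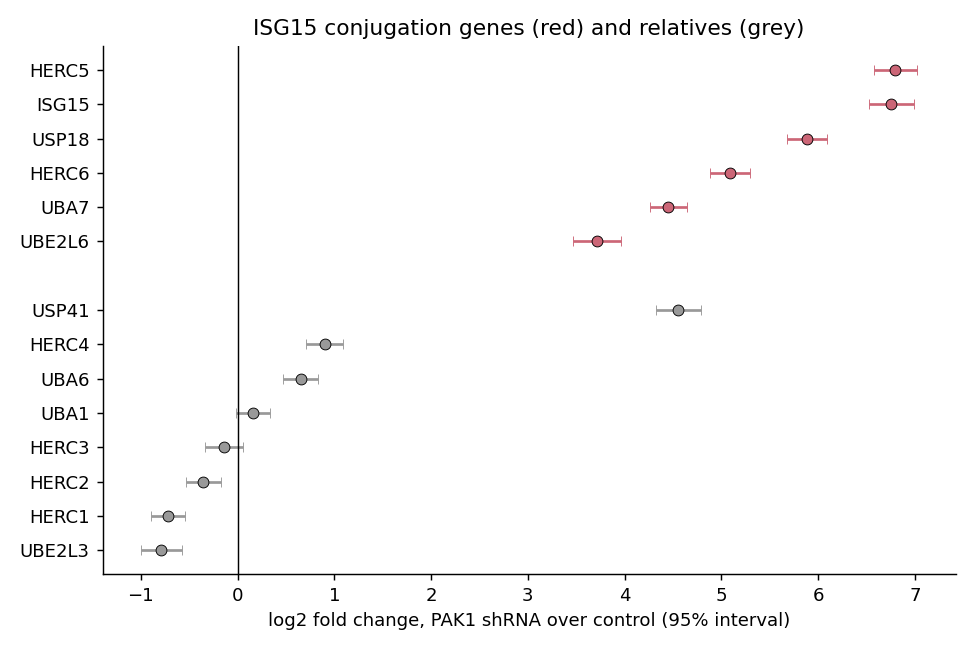
Log2 fold change of PAK1 shRNA over control cells (x axis) with its limma 95% interval (bars), 1 gene per line (y axis). Red marks the 6 genes. Grey marks their relatives, which are USP41, the near copy of USP18, and genes on the ubiquitin side. Each gene is shown by its brightest probe. The red points lie between 3.72 and 6.80, and all grey points other than USP41 lie below 1.

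The relatives that serve ubiquitin and not ISG15 were compared with the members in the same arrays. UBA1, the main E1 of ubiquitin, had log2 intensities of 13.59 and 13.57 in control cells and of 13.71 and 13.76 in PAK1 shRNA cells, a log2 fold change of 0.16 that did not pass (adjusted p = 0.0998 from limma). The change of UBA7 exceeded it by 4.29 on the log2 scale, and exceeded that of UBA6, another ubiquitin E1, by 3.80. UBE2L3, the E2 most like UBE2L6, was lower in PAK1 shRNA cells, with log2 intensities of 12.43 and 12.60 in control and of 11.72 and 11.74 in PAK1 shRNA cells and a log2 fold change of -0.79 (SE 0.09). The change of UBE2L6 exceeded it by 4.50. Of the other HERC proteins, HERC4 rose by 0.90 and HERC1 and HERC2 fell by 0.72 and 0.35. The dimmer probes of HERC4 gave 0.97 and 1.15, and those of HERC2 gave -0.39 and -0.69. HERC3, which lies in the same gene cluster as HERC5 and HERC6, was dim, with 1 of its 4 readings not well above background, and had a log2 fold change of -0.14 that did not pass (adjusted p = 0.183 from limma) and was 0.19 under median centring. HERC5 exceeded HERC3 by 6.94 and HERC4 by 5.90, and HERC6 exceeded HERC3 by 5.23. ISG15 exceeded UBB, a gene for ubiquitin itself, by 7.31. Each of these differences had an exact permutation p of 0.333 (two-sided), the smallest this design allows, as did the 3 within the set, and Benjamini-Hochberg adjustment over the 12 pairs computed leaves the value as it is. On all 4 arrays, the differences between member and relative within an array kept the groups apart.

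Because HERC5 and HERC6 are neighbours on chromosome 4, the genes measured around each member were listed, taking those with a probe within 250 kb of the member's probe. Around HERC5 there were 7 such genes, of which 5, HERC6 included, were higher, 1 lower and 1 not called. For these counts and those below, 31% of all genes tested were called higher and 31.9% lower. HERC6, 110 kb away, had the largest change among the 7. PPM1K, a phosphatase gene of mitochondria 237 kb away, rose by 2.89. A transcript known by an Ensembl number, with its probe close to that of PPM1K, was counted apart and rose by 2.75. PIGY, 16.2 kb from the HERC5 probe, fell by 1.25. Around ISG15, 23 genes were measured, 8 higher, 4 lower and 11 not called, with a median log2 fold change of 0.11 and a maximum of 2.16. Around UBA7, 13 genes had a median of 0.09 and ran from -3.26 to 1.69. Around UBE2L6 the 20 genes ran from -1.58 to 0.91 and around USP18 the 10 genes from -0.68 to 0.84. Outside the HERC5 and HERC6 pair, none of these neighbours was called with a rise of at least 16-fold. As only 0.473% of all genes were, so few neighbours could well hold none, and this says little of them.

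**Figure D3:**
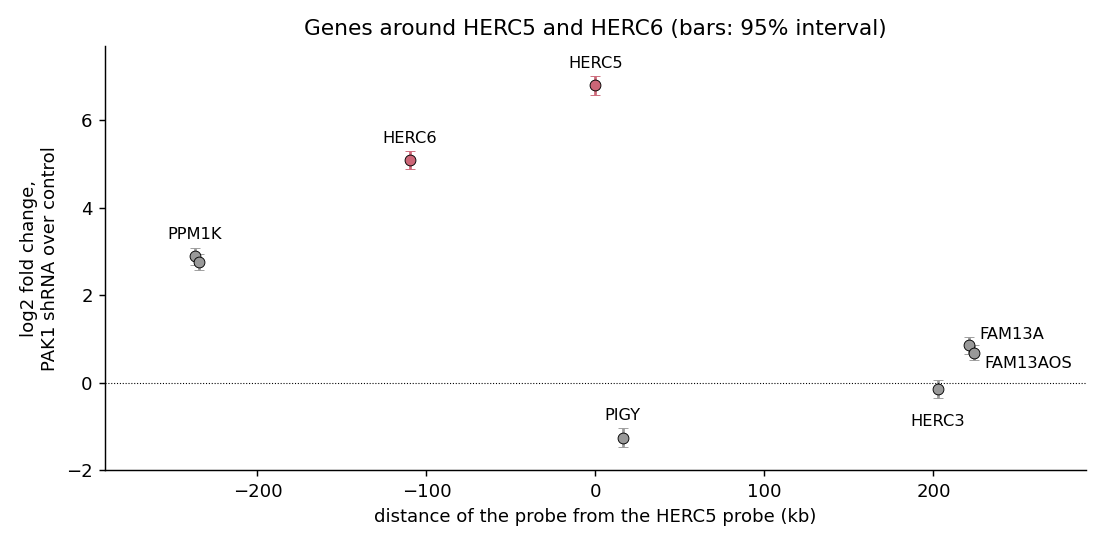
Log2 fold change of PAK1 shRNA over control cells with its limma 95% interval (y axis) for the genes measured around HERC5, by distance of the probe from the HERC5 probe in kb (x axis). HERC5 (6.80) and HERC6 (5.09) in red stand above all grey neighbours, PIGY lies below 0, and the unnamed point beside PPM1K is a transcript known by an Ensembl number.

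The partners of the cascade moved in both directions. Of 12 genes for other ISG15 ligases, proteases that also cut ISG15 and proteins that bind it, 5 were higher, 4 lower and 3 not called, and the median log2 fold change was -0.13. Over all genes tested 31% were called higher and 31.9% lower, and with a change of at least 2-fold 8.85% and 8.96%. TRIM25, a ligase for ISG15 as well as for ubiquitin, had log2 intensities of 13.82 and 13.77 in control cells and of 15.99 and 15.86 in PAK1 shRNA cells, a rise of 2.13 (SE 0.08). ARIH1, another ligase, fell by 0.33. The proteases USP13 and USP5, which can act on ISG15 in the test tube, fell by 1.78 and 0.64, and USP14, USP16 and USP21 did not pass. ITGB2, a chain of the LFA-1 integrin through which free ISG15 outside the cell acts, rose by 2.27 with its brightest probe. With the mean over the ITGB2 probes the rise was 1.33. The integrin gene ITGAL, also among the 12, rose by 0.39 and was not well above background on all 4 arrays. SQSTM1 and BAG3, which take part in autophagy, changed by 1.73 and -0.68. Only TRIM25, ITGB2 and SQSTM1 of the 12 rose at least 2-fold.

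The genes that switch on the ISG15 pathway were mostly higher. Of 12 receptor chains, kinases and transcription factors of the interferon response, 10 were higher, 1 lower and 1 not called. Among all genes tested 31% were called higher and 31.9% lower. The median log2 fold change of the 12 was 0.77, and 5 reached a 2-fold rise, against 8.85% of all genes. All 5 were transcription factors. IRF7 rose by 6.43 (SE 0.11), from log2 intensities of 11.34 and 11.10 to 17.57 and 17.74, a change close to that of ISG15. STAT2 rose by 3.72 and IRF9 by 3.17, both of which act at the ISRE, and IRF1 rose by 2.98. The receptor chains changed less, with IFNAR1 falling by 0.57 and IFNAR2 rising by 0.82. JAK1, the kinase on IFNAR2, rose by 0.72, and TYK2, the kinase on IFNAR1, had a log2 fold change of -0.01 that did not pass.

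Proteins described as targets of ISG15 conjugation were a mixed list. Of 24, 14 were higher, 8 lower and 2 not called, and the median log2 fold change was 0.40. Of all genes tested 31% were called higher and 31.9% lower, and 8.85% and 8.96% with a change of at least 2-fold. The counts of lower targets are near these shares and say little of the targets. The rises of at least 2-fold, 7 in number, included IFIT1, IFIT3, IFIH1, DDX58, EIF2AK2 and MX1, all known as interferon-stimulated genes themselves. IFIT1, which binds viral RNA, went from log2 intensities of 10.09 and 10.12 to 18.06 and 18.15, a log2 fold change of 8.00, more than any member, and IFIT3 rose by 7.30. The falls of at least 2-fold were in PCNA, the sliding clamp of DNA replication, in TP63 and in PLCG1, with log2 fold changes of -1.54, -1.13 and -1.03. This list shares some genes, JAK1 and IRF3 among them, with that of the activators. Of the 17 targets with a promoter entry, 5 held the ISRE core, namely IFIT1, IFIT3, IFIH1, EIF2AK2 and MX1, against 3.57% of all promoters.

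The other modifiers showed small changes. Of 19 genes for ubiquitin and ubiquitin-like proteins, 4 were higher, 7 lower and 8 not called, with a median log2 fold change of -0.03. Among all genes tested 31% were called higher and 31.9% lower. The balance of the 19 turned with the scaling, to 7 higher and 5 lower with cyclic loess (median 0.08). With the processed signal 6 were higher and 5 lower (median 0.04). UBD, which encodes the interferon-inducible modifier FAT10, had the largest rise, with log2 intensities of 6.27 and 6.28 in control cells, where it was not well above background on either array, and of 7.43 and 7.83 in PAK1 shRNA cells. UBD was thus at least 2.57-fold higher, a bound from its own dim signal in control cells (log2 fold change 1.36, SE 0.13), and it was the sole one of the 19 to reach 2-fold. GABARAPL1, an autophagy modifier, rose by 0.72, and its relative GABARAPL2 fell by 0.59, as did the ubiquitin fusion gene RPS27A. Of the 8 relatives described above, USP41 and those on the ubiquitin side, 3 were higher, 3 lower and 2 not called, with a median of 0.01. These counts are near the shares of all genes. None of the modifiers, relatives, partners and activators with a promoter entry held the ISRE core in its window (14, 7, 10 and 8 genes). The GAS element was found in 4 of these 8 activators, 1 of the 14 modifiers and 1 of the 17 targets. It was found in none of the partners and relatives, against 7.66% of all promoters.

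The genes whose pattern over the 4 arrays was most like the mean of the members were sought among 20735 other genes well above background on all arrays, by distance between centred log2 values. They were CEACAM1, a cell adhesion receptor (distance 0.12, log2 fold change 5.35), HSH2D, an adaptor of lymphocyte signalling (0.14 and 5.33), DDX58, which encodes the RNA sensor RIG-I (0.15 and 5.37), GBP5, a guanylate-binding protein (0.17 and 5.41), and IFIH1, which encodes the RNA sensor MDA5 (0.18 and 5.52). With 2 groups of 2 arrays any gene with a like fold change has a like pattern, so the list ranks genes by size of change.

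PAK1, the target of the shRNA, had log2 intensities of 11.19 and 11.27 in control cells and of 10.44 and 10.52 in PAK1 shRNA cells. It fell by 0.75 on the log2 scale (SE 0.08, adjusted p = 0.000182 from limma), to 59.5% of the control level, which goes with the labels. Replicate arrays correlated at 0.998 in both groups over genes, and 78.9% to 83.2% of probes were well above background. A few spots of the control arrays had a local background of up to 26111 and 41412, against 64 and 60.5 at most on the PAK1 shRNA arrays, which is why normexp was fitted without spots of flagged background. All 8 basal epithelial markers were well above background on all 4 arrays, with 2 higher, 5 lower and 1 not called. Beside this count and those of the other markers below, 31% of all genes tested were called higher and 31.9% lower. Of 6 luminal epithelial markers 5 could be tested, with 2 higher, 1 lower and 2 not called. Their summed intensity was 159616 to 164451 in control and 207958 to 229996 in PAK1 shRNA cells. KRT18 made up most of that sum, rising by 0.48. FOXA1, far dimmer with a mean log2 intensity of 8.10 in control cells, rose by 1.48. GATA3 fell by 0.49, and KRT8 and ESR1 did not pass. Of 6 leukocyte markers 4 were higher and none lower, and their summed intensity was 26497 to 28966 in control and 57969 to 60953 in PAK1 shRNA cells. CD14 made up most of it, rising by 1.32, whereas PTPRC, which all leukocytes carry, had log2 intensities of 7.65 and 7.79 in control and of 7.85 and 7.84 in PAK1 shRNA cells and did not pass. Of the fibroblast markers 2 of 5 could be tested, with 1 higher and 1 lower, and of 4 endothelial markers 1 was higher and 1 lower. The part of any such cells, or of a shift between epithelial states, in the rise of the ISG15 genes was not tested.

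**Figure D4:**
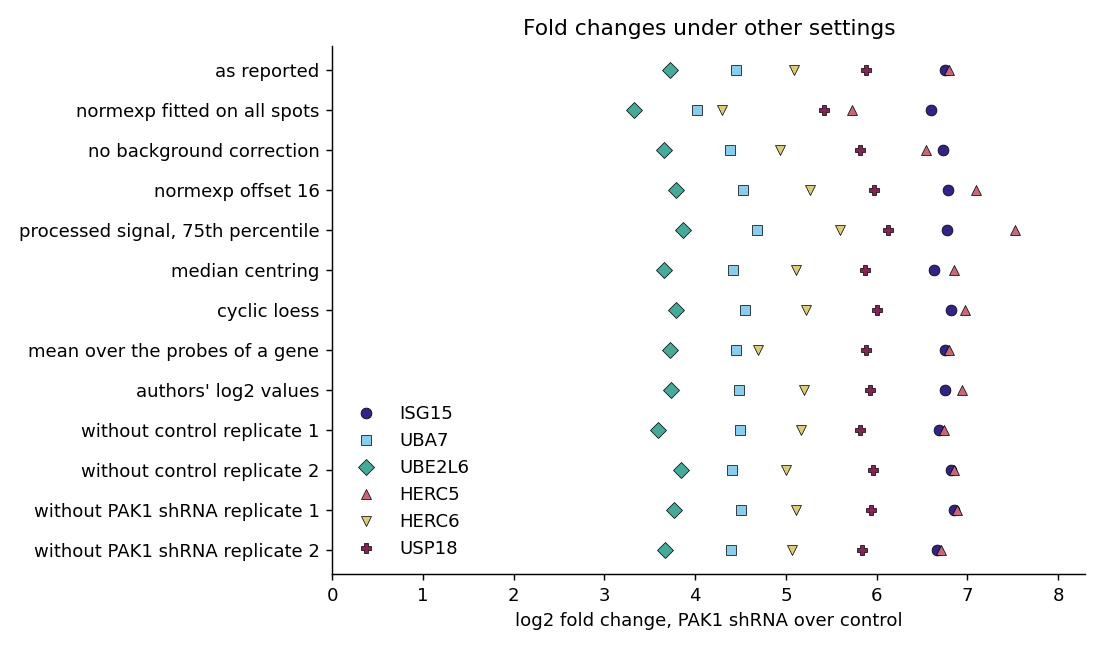
Log2 fold change of PAK1 shRNA over control cells (x axis) for each of the 6 genes (symbols), as reported and under other settings (y axis). The settings shown vary background correction, signal, normalization, the probe rule, the table used and the arrays left out. Every symbol lies above 3, and HERC5 moves most, between 5.73 and 7.52.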

How the data were processed

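RNA was labelled with Cy3 and read in 1 colour on Agilent arrays of a single slide, which therefore has no block term. Spot intensities were deposited as scanner output of Agilent Feature Extraction (version 9.5.3.1 per the file headers), not normalized between arrays. A further table, of log2 values the authors computed (normexp and quantile normalization in the study's methods, offset not stated), served as an alternative. Groups came from the sample labels. The members and lists were chosen with earlier results of these data known.

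The mean intensity was background corrected with normexp (offset 50), with parameters fitted without spots of flagged local background, and quantile normalized without control spots. Flagged outlier spots were dropped, spots of a probe averaged, probes kept where both arrays of 1 group or more were well above background, and the brightest probe taken for each gene. The 22001 genes left were tested with limma 3.58.1 (lmFit, eBayes; R 4.3.3), and calls were made at a Benjamini-Hochberg adjusted p under 0.05. The study's methods also name limma, but not the other choices. The tests were also run on 1 simulated set, with normal noise around the gene means and 200 of 22001 genes changed. In the data far more genes were called, 31% higher and 31.9% lower, and normalization was not simulated. The set therefore does not show how the calls behave at such shares. Changes of 1 on the log2 scale were recovered in 100% of cases and changes of 0.5 in 87%. In the same set 21 unchanged genes were called as well. Gene names are those of the array, with 1 list gene found under an older symbol (IFNLR1 as IL28RA).

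Genes were named by rule: the 6 members, PAK1, a selection of relatives and regulators, the 2 highest and 2 lowest called genes of each list, and the 5 most like the members. UBA6, HERC2, UBB, the other genes of the lists with a value, the neighbours and the markers were named after their values were seen. Some items are not reported here. Alternatives covered background correction, signal, normalization, filter, flags, the probe rule, the table used, the test and its threshold, the replicate number as a block, and leaving out each array.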

Additional observations from a re-analysis of the deposited data

How the results depend on the processing

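The 6 members kept their direction and their call under every alternative run, with the largest adjusted p, 0.0185, from the methods' t-test. Leaving out each array in turn, the log2 fold change was 6.70 to 6.89 for HERC5, 6.66 to 6.85 for ISG15 and 3.59 to 3.84 for UBE2L6. Same-numbered arrays did not deviate together (r = 0.01 across 22001 genes), and with the replicate block 6973 genes were higher, 7070 lower and all 6 members called. A change of at least 2-fold in addition to the adjusted p left 1947 genes higher, 1971 lower, 5 activators, 10 targets, 4 partners, 1 relative (USP41) and 1 modifier. PAK1, at -0.75, fell short of 2-fold. The methods' t-test, adjusted, called 4370 genes higher and 5 modifiers (5893 genes higher and 6223 lower unadjusted), and an adjusted p under 0.01 left 7 modifiers. Without each array in turn 5757 to 6400 genes were higher, 6037 to 6563 lower and 7 to 10 modifiers called, with 7 without PAK1 shRNA array 2. HERC3 turned from -0.14 to 0.19 under median centring (not called in either), where the median of all genes was 0.14, and with the processed signal that median was 0.12. Over the 24 named list genes, 438 of 453 values kept direction and call, 12 lost the call and 2, both UBA1 (0.15 with normexp on all spots, 0.32 with cyclic loess), gained it. The causes were not tested. The precision is limited by 2 arrays a group, and the fold changes of HERC5 and HERC6, the dimmest members in control cells, moved most with the background correction.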
